A study of Canis lupus familiaris with 34 samples.

Results

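The genes described here are the matrix metalloproteinases (MMP), the ADAM, ADAMTS and ADAMTS-like families and the tissue inhibitors of metalloproteinases (TIMP) of the dog. They were chosen by name, and 60 of the 23988 rows of the expression table carry such a name: 17 MMP, 3 TIMP, 19 ADAM, 17 ADAMTS and 4 ADAMTS-like genes. Of these, 47 reached at least 1 FPKM (fragments per kilobase, a level scaled by transcript length and library size) in at least 2 of the 34 libraries and entered the tests. Another 11 names in the dog reference fit the same choice by name but matched no row by symbol. Among them are MMP3, MMP9, MMP12, MMP14 and TIMP3, which were not analysed here. The 11 names also include MMP23, which may be the row named MMP23B here, and MMP24OS, which is not shown to be a protease gene. They are therefore not a count of missing members.

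MMPs are zinc proteases that cut collagens, gelatin and other matrix proteins, and TIMPs block them by occupying the active site. ADAMs are membrane proteins, of which some cut growth factors, cytokines and receptors from the cell surface and others have no protease activity and act in adhesion. ADAMTS proteases are secreted and cut aggrecan, procollagens or other matrix proteins, while the ADAMTS-like proteins share their matrix-binding modules and lack the protease domain. In bone, these enzymes take part in matrix turnover, in growth plate cartilage removal and in osteoclastic resorption.

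The study made sequencing libraries from total RNA of canine osteosarcoma, a bone cancer whose cells make bone matrix. The libraries are of 2 lines grown from osteosarcoma (OSCA.8, OSCA.78), 1 osteoblast culture (CNOB), 1 metastasis (DOS.6M) and 30 primary bone tumours. All 34 are labelled as Golden Retriever, although the series text also mentions Rottweilers, and no treatment, age or site of the metastasis is given. The lines came from earlier primary tumours according to the series text, and each line and culture is 1 library. The libraries titled DOS.46 and DOS.46.2 were averaged because of their common number, so that 29 primary tumours were compared. Some other titles share a number (OSCA.8 with DOS.8, OSCA.78 with DOS.78, DOS.6M with DOS.6), and the labels do not say whether a number marks a dog. Nothing in the labels says how separate the samples of a group are, so the p-values measure the spread between these samples only.

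Summed FPKM per library ranged from 479053 to 1418310, the highest in the osteoblast culture, and depth in reads is unknown. The members together made up 0.171% of that sum in OSCA.8, 0.155% in OSCA.78, 0.217% in the osteoblast culture, 0.292% in the metastasis and between 0.186% and 1.05% in the tumours (median 0.372%). Tumours DOS.32 and DOS.100 carry different numbers, yet their libraries were close to each other: the median absolute difference over the 15165 genes past the filter was 0.093 on the log2(FPKM + 1) scale, against 0.070 between DOS.46 and DOS.46.2 and at least 0.267 for each of the other 433 pairs of primary tumour libraries. They were kept as 2 tumours, and calls of members that changed when they were averaged are given beside the member. GAPDH, a gene that every cell uses, was listed at 0 in 32 of 34 libraries, so a member listed at 0 is not shown to be silent. The defining markers go partly against the labelled osteoblast culture: IBSP (bone sialoprotein) stood at 6.95 FPKM, SPP1 (osteopontin) at 4.38 and PHEX at 0.075, while SP7 (osterix), at 24.7 FPKM, lay inside the tumour range. The sum of 5 bone markers was 36.5 FPKM there, against 108 to 8217 FPKM in the tumours. Skeletal muscle actin ACTA1 stood at 708 FPKM in the culture. The 3 other skeletal muscle markers found did not go with it: MYL1 stood at 0.081 FPKM, CKM at 0.098, and TNNT3 was listed at 0.

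In the tumours, 3 genes held most of the summed FPKM of the 60 rows found by symbol. Members that were not found by symbol, among them MMP9, MMP14 and TIMP3, are not in this sum. MMP13, MMP2 and TIMP1 together held between 50.3% and 89.9% of the members' summed FPKM (median 70.3%). MMP2 led in 14 tumours, MMP13 in 11 and TIMP1 in 4. Below them came TIMP2, with a tumour median of 129 FPKM, ahead of ADAM9 (35.8), ADAMTS2 (32.7), ADAM19 (30.8), ADAM10 (26.3) and MMP23B (25.7). FPKM is scaled by transcript length, yet GAPDH was at most 0.089 FPKM in any library, so some genes may be listed too low. The order given here is that of the listed values, and the ranges of neighbours in it overlap widely.

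**Figure D1:**
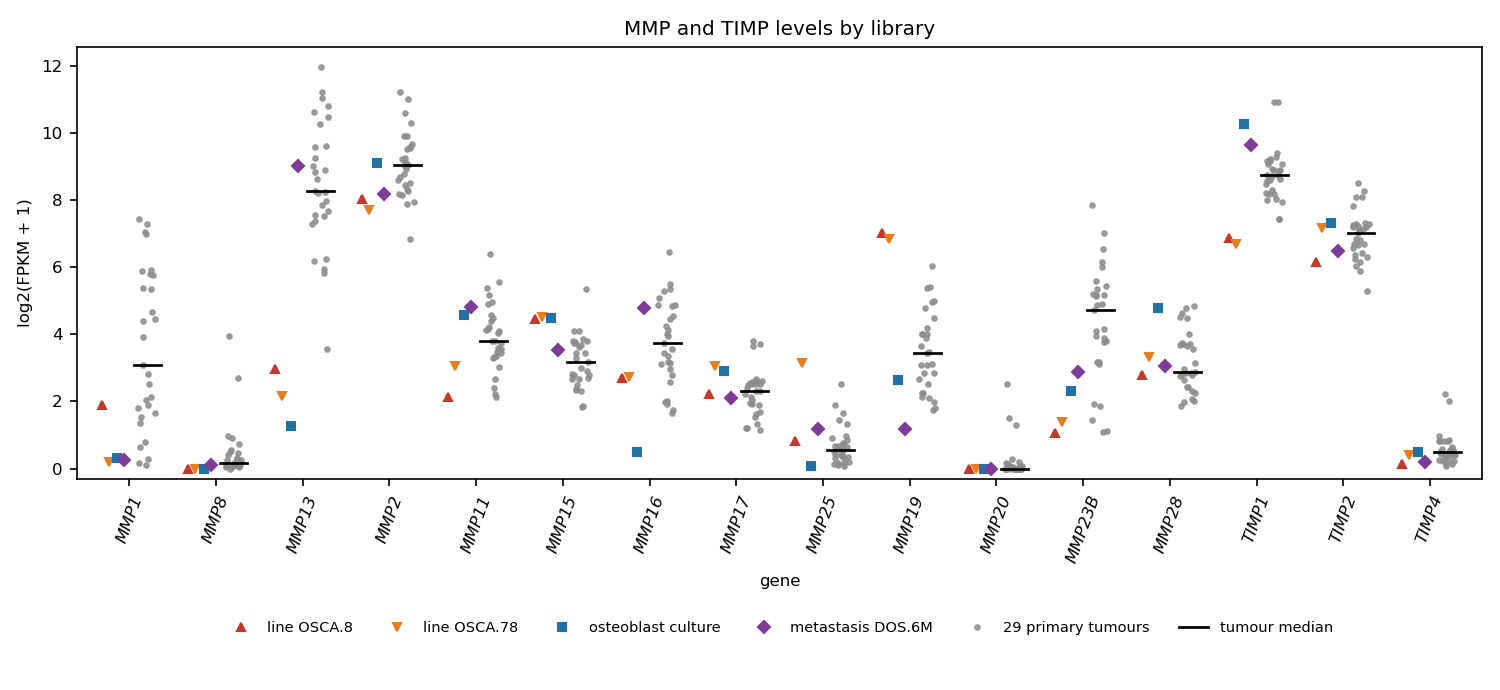
Levels of the 13 MMPs and 3 TIMPs past the filter, as log2(FPKM + 1) on the vertical axis, with 1 symbol per library: the lines OSCA.8 and OSCA.78, the osteoblast culture and the metastasis DOS.6M left of the 29 primary tumours (grey), whose median is the black bar. MMP13, MMP2 and TIMP1 lie highest in the tumours, and MMP19 is the gene for which both lines lie above every tumour.

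Between lines and tumours, 12 of the 47 tested members passed the threshold (limma on log2(FPKM + 1), Benjamini-Hochberg adjusted p below 0.05 over 15165 genes), or 25.5%, against a background of 16.4% of all genes. Lower in the lines were 8 (17.02%; background 7.92%): MMP13, TIMP1, ADAM8, ADAM28, ADAMTS2, ADAMTS5, ADAMTS14 and ADAMTS17. Higher in the lines were 4 (8.51%; background 8.49%): MMP19, MMP25, ADAMTS19 and ADAMTSL1. With DOS.32 and DOS.100 averaged, 13 members passed (9 lower, 4 higher), and 2504 of all genes in place of 2489. The median log2 fold change was -0.24 over the 47 and -0.05 over all genes. Each line was also compared with the tumours without the other. With OSCA.8 alone 1 member passed (ADAMTS14; 2.13%, background 2.27%), and with OSCA.78 alone 3 did (MMP13, ADAMTS2 and MMP25; 6.38%, background 13.2%). The share of members called was thus near that of all genes with OSCA.8 alone and below it with OSCA.78 alone. Counts this small do not set the members apart from other genes.

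**Figure D2:**
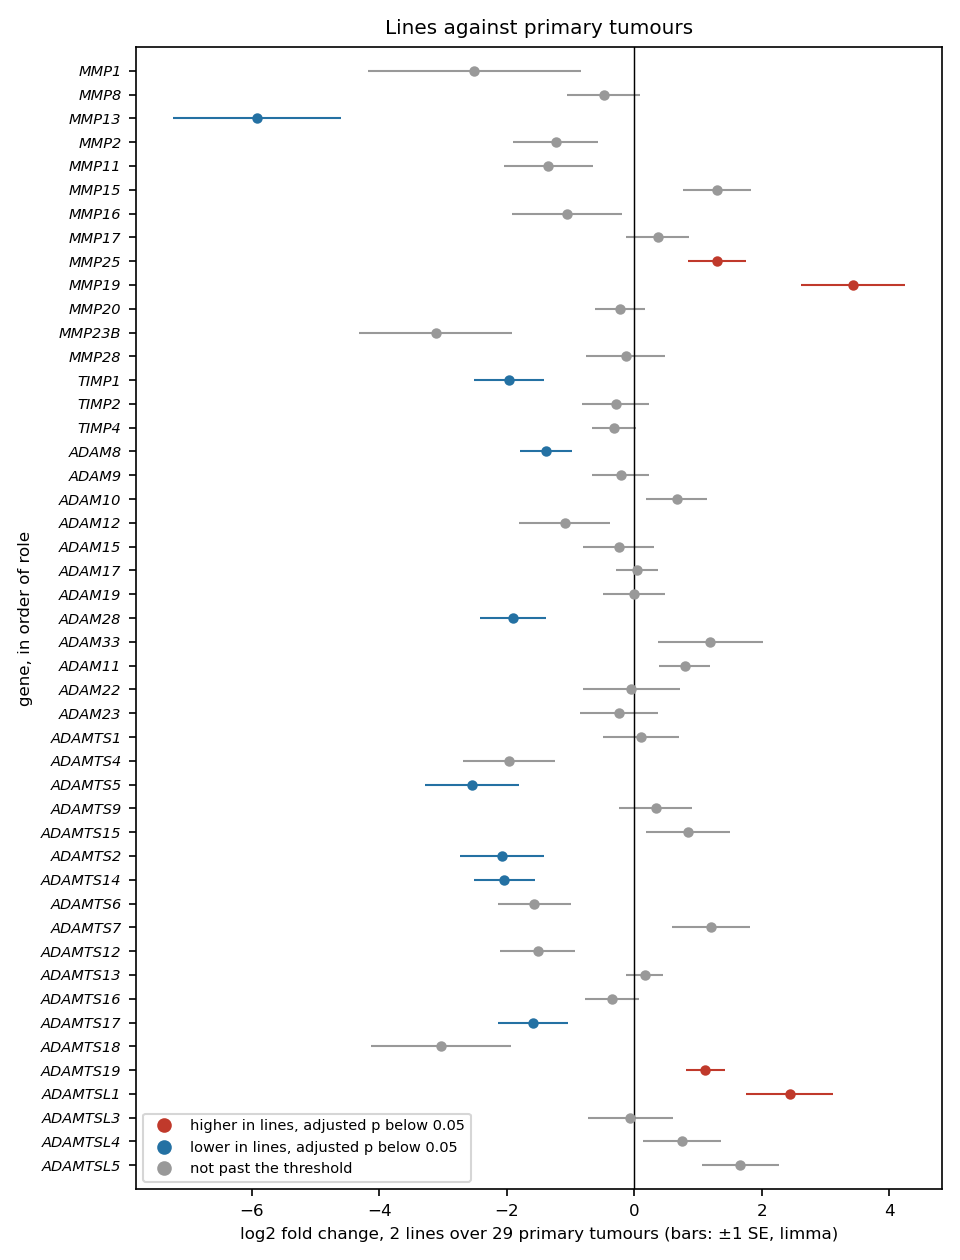
Log2 fold change of the 2 lines over the 29 primary tumours for the 47 members past the filter, in order of role, with bars of 1 SE from limma. Blue marks the 8 lower and red the 4 higher members with an adjusted p below 0.05; MMP13 has the largest fall (-5.92) and MMP19 the largest rise (3.44).

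MMP13, the collagenase of growth plate cartilage and bone, stood at 6.77 FPKM in OSCA.8, 3.46 in OSCA.78, 1.40 in the osteoblast culture and 512 in the metastasis, against 10.8, 311 and 3990 FPKM (lowest, median and highest) in the tumours. Both lines and the osteoblast culture lay below every tumour, while the metastasis lay within the tumour range, above 19 of 29. The fall in the lines was -5.92 on the log2 scale (SE 1.32, adjusted p = 0.0023 in limma), with adjusted p = 0.125 without OSCA.78 and 0.0229 without OSCA.8. Among tumours MMP13 was highest in DOS.111, DOS.28, DOS.24 and DOS.116, and DOS.112, with the lowest level, stood apart below DOS.90 (55.6 FPKM). The summed bone-forming markers were also lower in the lines, at 21.7 and 10.96 FPKM in OSCA.8 and OSCA.78, against 108 to 8217 in the tumours; their part in the result was not tested. In bulk RNA, fewer cells of a type and less RNA per cell cannot be told apart.

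MMP1, the interstitial collagenase, had the largest SD of log2(FPKM + 1) among tumours of the 47 members. It stood at 2.71 FPKM in OSCA.8, 0.150 in OSCA.78, 0.240 in the osteoblast culture and 0.184 in the metastasis, against 0.070, 7.53 and 172 FPKM in the tumours. The lines lay within the tumour range, and 14 tumours had at least 10 FPKM. Its log2 difference of -2.51 (SE 1.67) in the lines gave adjusted p = 0.321 in limma. MMP8, the collagenase of neutrophils, was listed at 0 in both lines and in the osteoblast culture, and at 0.086 FPKM in the metastasis. In tumours its median was 0.132 FPKM, and only DOS.85 (14.3) and DOS.114 (5.49) reached 1 FPKM.

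MMP2, the gelatinase that is activated at the cell surface with the help of TIMP2, stood at 259 FPKM in OSCA.8, 206 in OSCA.78, 546 in the osteoblast culture and 288 in the metastasis, against 113.1, 525 and 2390 FPKM in the tumours. It was thus above 100 FPKM in every library, and no group lay outside the tumour range (log2 difference of the lines -1.23, SE 0.67, adjusted p = 0.211). MMP11, the stromelysin made by stromal cells, stood at 3.37 and 7.40 FPKM in OSCA.8 and OSCA.78, at 22.6 in the osteoblast culture and 27.1 in the metastasis, against 3.36, 13.002 and 82.7 FPKM in the tumours (adjusted p = 0.186 for the lines).

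Of the membrane-type MMPs, which are held at the cell surface, MMP25 was the only called gene. MMP25 stood at 0.780 FPKM in OSCA.8, 7.93 in OSCA.78, 0.048 in the osteoblast culture and 1.29 in the metastasis, against 0.057, 0.479 and 4.77 FPKM in the tumours. OSCA.78 lay above every tumour and OSCA.8 inside their range. The rise of 1.299 (SE 0.46, adjusted p = 0.0475) therefore rests on OSCA.78, without which the log2 difference was 0.14 (adjusted p = 0.944). The call also ended when DOS.32 and DOS.100 were averaged (adjusted p = 0.0516), without tumour DOS.115 (0.0525), without the filter (0.0619), after upper quartile scaling (0.0600) and with a pseudocount of 0.1 FPKM (0.0945). MMP15 stood at 20.998 and 21.7 FPKM in OSCA.8 and OSCA.78 and at 21.2 in the osteoblast culture, above 28 of 29 tumours in each case, yet its log2 difference of 1.29 in the lines did not pass (adjusted p = 0.0924). MMP16 had 5.47 and 5.57 FPKM in OSCA.8 and OSCA.78, 0.403 in the osteoblast culture and 26.5 in the metastasis, against 2.13, 12.5 and 85.8 FPKM in the tumours (adjusted p = 0.435 for the lines). MMP17 ranged from 1.22 to 13.01 FPKM in the tumours, with the lines, at 3.68 and 7.26 FPKM, inside that range.

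MMP19, a secreted protease of basement membranes, was the member with the largest rise in the lines. It stood at 128 FPKM in OSCA.8, 112.7 in OSCA.78, 5.19 in the osteoblast culture and 1.28 in the metastasis, against 2.34, 9.94 and 65.1 FPKM in the tumours. Both lines lay above every tumour, while the osteoblast culture lay above 8 of 29 and the metastasis below all of them. MMP19 was the 1 member of the 47 with both lines above every tumour, where 4.04% of all genes did so. The rise was 3.44 on the log2 scale (SE 0.82, adjusted p = 0.0040), with adjusted p = 0.114 without OSCA.78 and 0.0523 without OSCA.8.

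MMP23B, a membrane-bound MMP, stood at 1.09 FPKM in OSCA.8, 1.61 in OSCA.78, 3.99 in the osteoblast culture and 6.41 in the metastasis, against 1.14, 25.7 and 229 FPKM in the tumours. OSCA.8 lay below every tumour and OSCA.78 above 2 of them, and the log2 difference of -3.11 (SE 1.20) had adjusted p = 0.0722. MMP28, or epilysin, had 5.92 and 9.01 FPKM in the lines and 26.6 in the osteoblast culture, against a tumour median of 6.35 FPKM. MMP20, the protease of tooth enamel, was listed at 0 in both lines, the osteoblast culture, the metastasis and 15 tumours, and reached 1 FPKM in 3 tumours, with 4.70 in DOS.81.

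Of the 3 inhibitors, TIMP1 fell in the lines. TIMP1 stood at 117 FPKM in OSCA.8, 103 in OSCA.78, 1227 in the osteoblast culture and 797 in the metastasis, against 172, 428 and 1929 FPKM in the tumours. Both lines lay below every tumour, whereas the osteoblast culture and the metastasis each lay above 27 of 29. The fall was -1.97 (SE 0.55, adjusted p = 0.0125), with adjusted p = 0.259 without OSCA.78 and 0.0723 without OSCA.8. TIMP2 stood at 70.7 and 143 FPKM in OSCA.8 and OSCA.78, 158 in the osteoblast culture and 87.6 in the metastasis, against 38.5, 129 and 365 FPKM in the tumours, all inside the tumour range (adjusted p = 0.740). TIMP4 was low throughout, with 0.108 and 0.325 FPKM in the lines and a tumour median of 0.406 FPKM; DOS.110 (3.71) and DOS.115 (3.004) were the only tumours above 1 FPKM.

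Of the 9 tested ADAMs with protease activity, ADAM8 and ADAM28 fell in the lines and 7 were not called. ADAM10, which cuts Notch receptors, had 54.6 and 30.8 FPKM in OSCA.8 and OSCA.78, against 6.96, 26.3 and 62.7 FPKM in the tumours (adjusted p = 0.364). ADAM17, which releases TNF, had 20.1 and 18.4 FPKM in the lines, against 10.3, 18.3 and 43.0 FPKM in the tumours (adjusted p = 0.940). ADAM9, on average the most abundant ADAM in tumours, had 54.5 and 15.2 FPKM in the lines, on either side of the tumour median of 35.8 FPKM. A p above the threshold does not show that these levels are alike.

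ADAM8, a protease of myeloid cells, stood at 0.501 FPKM in OSCA.8, 0.867 in OSCA.78, 0.224 in the osteoblast culture and 3.13 in the metastasis, against 0.973, 3.35 and 7.11 FPKM in the tumours. ADAM28, known from lymphocytes and some carcinomas, stood at 0.018 FPKM in OSCA.8, 0.019 in OSCA.78, 0.012 in the osteoblast culture and 1.88 in the metastasis, against 0.694, 2.37 and 18.1 FPKM in the tumours. For both genes the 3 cultures lay below every tumour and the metastasis did not. ADAM8 fell by 1.38 on the log2 scale (SE 0.41, adjusted p = 0.0194; 0.195 without OSCA.78, 0.157 without OSCA.8 and 0.0727 after quantile normalisation), and ADAM28 fell by 1.90 (SE 0.51, adjusted p = 0.0102; 0.204 without OSCA.78 and 0.0763 without OSCA.8). All 8 macrophage markers fell in the lines too, with a sum of 1.35 FPKM in OSCA.8, 2.01 in OSCA.78, 24.4 in the osteoblast culture and 276 in the metastasis, against 75.8 to 1296 FPKM in the tumours, and 7 of the 8 were below 1 FPKM in both lines (TYROBP listed at 0 in a line). Their part in the result was not tested.

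**Figure D3:**
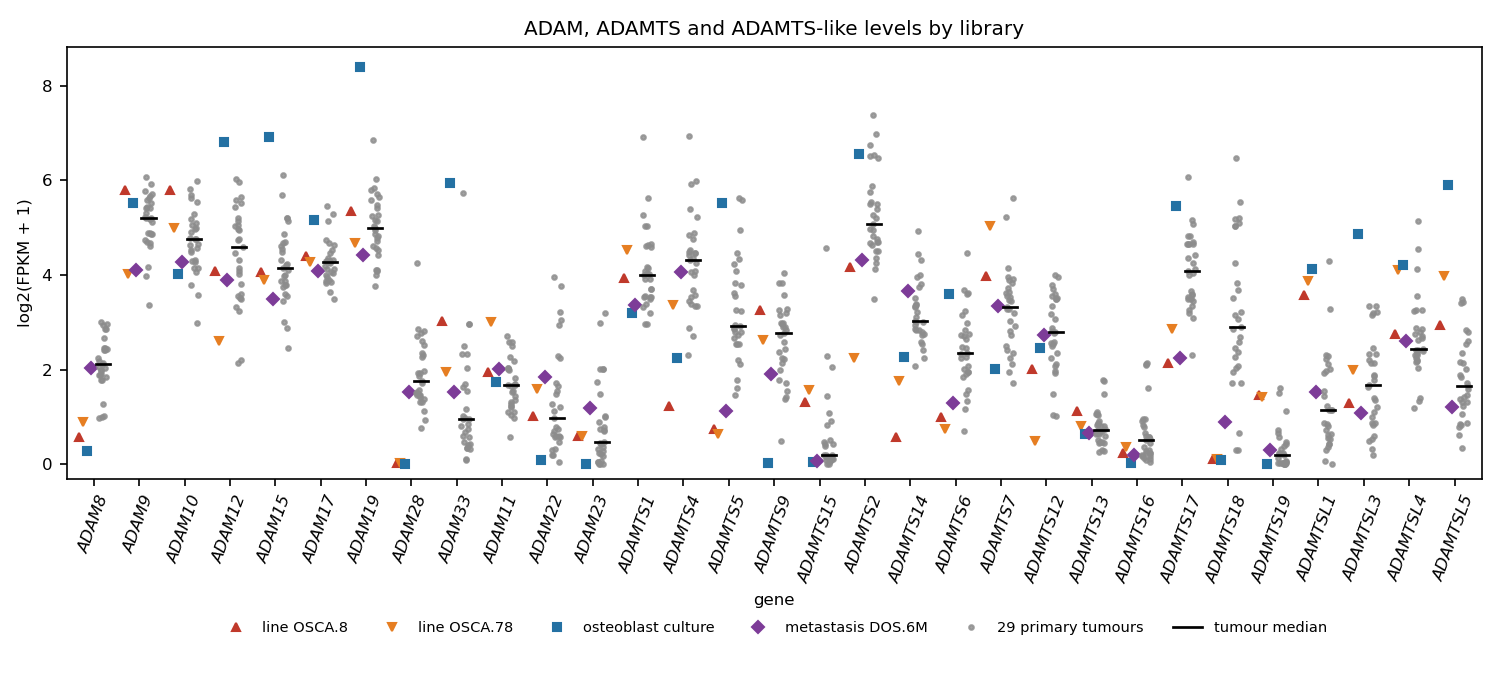
Levels of the 31 ADAM, ADAMTS and ADAMTS-like genes past the filter, as log2(FPKM + 1), with 1 symbol per library: the lines OSCA.8 and OSCA.78, the osteoblast culture and the metastasis left of the 29 primary tumours (grey, median as black bar). ADAM8 and ADAM28 lie below every tumour in the lines and the osteoblast culture, and ADAM12, ADAM15, ADAM19, ADAM33, ADAMTSL3 and ADAMTSL5 lie above every tumour in the osteoblast culture.

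ADAM12 and ADAM19, the meltrins of muscle and bone precursors, were not called in the lines: ADAM12 had 15.9 and 5.13 FPKM in OSCA.8 and OSCA.78, against a tumour median of 23.3 FPKM, and ADAM19 had 39.8 and 24.7 FPKM in the lines, against a tumour median of 30.8 FPKM. ADAM33, a gene of mesenchymal cells, had 7.16 and 2.88 FPKM in the lines, above 28 and 22 of 29 tumours, with adjusted p = 0.341. Of the ADAMs without protease activity, ADAM22, a receptor of secreted LGI proteins, had 1.04 and 2.03 FPKM in the lines, against 0.035, 0.982 and 14.5 FPKM in the tumours. ADAM23, with the lowest tumour median of the ADAMs past the filter (0.395 FPKM), had 0.521 and 0.526 FPKM in the lines and was listed at 0 in 3 libraries. The 7 ADAMs that failed the filter included ADAM7, listed at 0 in all 34 libraries, and none of the 7 exceeded 0.761 FPKM anywhere. Of the other members that failed it, MMP27 reached 4.19 FPKM in DOS.115, MMP21 3.15 in DOS.110, ADAMTS8 1.67 in DOS.116 and ADAMTS20 1.27 in the metastasis, each the 1 library at or above 1 FPKM, while MMP24 and MMP26 stayed at or below 0.493 FPKM.

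In the ADAMTS group that cuts aggrecan, ADAMTS5 fell in the lines and ADAMTS1, ADAMTS4, ADAMTS9 and ADAMTS15 were not called. ADAMTS5 stood at 0.682 FPKM in OSCA.8, 0.565 in OSCA.78, 44.7 in the osteoblast culture and 1.19 in the metastasis, against 1.77, 6.63 and 48.3 FPKM in the tumours. Both lines and the metastasis lay below every tumour, and the osteoblast culture above 27 of 29. The fall in the lines was -2.54 (SE 0.74, adjusted p = 0.0165; 0.273 without OSCA.78 and 0.0928 without OSCA.8). ADAMTS4 stood at 1.36 and 9.37 FPKM in OSCA.8 and OSCA.78, against 3.93, 18.9 and 122 FPKM in the tumours, so that OSCA.8 lay below every tumour and OSCA.78 did not. Its log2 difference of -1.96 had adjusted p = 0.0593, but 0.0485 with DOS.32 and DOS.100 averaged, 0.0482 after upper quartile scaling and 0.0369 with a pseudocount of 0.1 FPKM. All 5 endothelial markers found fell in the lines, with a sum of 0.414 and 0.426 FPKM in OSCA.8 and OSCA.78, against 79.0 to 2213 FPKM in the tumours, and each was below 1 FPKM in both lines; their part in these differences was not tested. ADAMTS1 had 14.4 and 22.1 FPKM in the lines, against 6.77, 14.97 and 120 FPKM in the tumours.

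Both procollagen N-propeptidases past the filter, the enzymes that trim fibrillar procollagen, fell in the lines. ADAMTS2, with the highest tumour median of the ADAMTS genes, stood at 16.9 FPKM in OSCA.8, 3.77 in OSCA.78, 93.6 in the osteoblast culture and 18.9 in the metastasis, against 10.3, 32.7 and 167 FPKM in the tumours. OSCA.78 lay below every tumour and OSCA.8 above 2 of them. The fall was -2.07 (SE 0.67, adjusted p = 0.0301), and it rests on OSCA.78, without which it was -1.12 (adjusted p = 0.672). ADAMTS14 stood at 0.501 FPKM in OSCA.8, 2.39 in OSCA.78, 3.83 in the osteoblast culture and 11.6 in the metastasis, against 3.23, 7.17 and 29.7 FPKM in the tumours, with both lines below every tumour. ADAMTS14 fell by 2.04 (SE 0.48, adjusted p = 0.0035; 0.0238 without OSCA.78 and 0.142 without OSCA.8). Of the 3 fibroblast markers found, POSTN and FAP also fell in the lines, while LUM was not called (adjusted p = 0.404 in limma). LUM stood at 678 and 86.2 FPKM in OSCA.8 and OSCA.78, against a tumour median of 503 FPKM. The sum of the 3 was 707 and 87.8 FPKM in OSCA.8 and OSCA.78, against 76.1 to 5654 FPKM in the tumours. The part of these markers in the result was not tested.

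Of the other ADAMTS genes, ADAMTS17 fell and ADAMTS19 rose in the lines. ADAMTS17 stood at 3.43 and 6.27 FPKM in OSCA.8 and OSCA.78, with 43.1 in the osteoblast culture and 3.77 in the metastasis, against 3.94, 16.1 and 65.8 FPKM in the tumours (log2 change -1.59, SE 0.55, adjusted p = 0.0427; 0.230 without OSCA.78, 0.299 without OSCA.8, 0.0544 after quantile normalisation and 0.0572 without the filter). ADAMTS19 stood at 1.77 and 1.69 FPKM in OSCA.8 and OSCA.78, was listed at 0 in the osteoblast culture, and had 0.228 FPKM in the metastasis, against a tumour median of 0.155 and a highest value of 2.06 FPKM. Each line lay above 27 of 29 tumours (log2 change 1.12, SE 0.31, adjusted p = 0.0127; 0.215 without OSCA.78 and 0.0917 without OSCA.8). ADAMTS18 stood at 0.089 and 0.083 FPKM in the lines, 0.072 in the osteoblast culture and 0.856 in the metastasis, against 0.241, 6.47 and 88.3 FPKM in the tumours. Both lines and the osteoblast culture lay below every tumour, but the log2 difference of -3.03 (SE 1.10) had adjusted p = 0.0549, and 0.0073 with a pseudocount of 0.1 FPKM. The remaining ADAMTS6, ADAMTS7, ADAMTS12, ADAMTS13 and ADAMTS16 were not called, with tumour medians between 0.429 FPKM (ADAMTS16) and 9.07 FPKM (ADAMTS7). With a pseudocount of 0.1 FPKM, ADAMTS6 (adjusted p = 0.0282) and ADAMTS12 (0.0353) passed. In all, 7 of the 47 members had both lines below every tumour (background 7.3% of genes): MMP13, TIMP1, ADAM8, ADAM28, ADAMTS5, ADAMTS14 and ADAMTS18. With the osteoblast culture below every tumour as well there were 4 (background 4.76%): MMP13, ADAM8, ADAM28 and ADAMTS18. No member had all 3 cultures above every tumour (background 2.2%).

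Of the 4 ADAMTS-like genes, whose proteins bind matrix without cutting it, ADAMTSL1 rose in the lines. ADAMTSL1 stood at 10.9 FPKM in OSCA.8, 13.8 in OSCA.78, 16.6 in the osteoblast culture and 1.91 in the metastasis, against 0.0095, 1.21 and 18.6 FPKM in the tumours. The 3 cultures each lay above 28 of 29 tumours, and DOS.111 was the tumour above them. The rise was 2.44 (SE 0.68, adjusted p = 0.0125; 0.275 without OSCA.78 and 0.0670 without OSCA.8). ADAMTSL5 had 6.71 and 14.7 FPKM in the lines and 58.7 in the osteoblast culture, against 0.269, 2.14 and 10.2 FPKM in the tumours. Its log2 difference of 1.66 in the lines had adjusted p = 0.0555, but 0.0485 with DOS.32 and DOS.100 averaged, 0.0373 without tumour DOS.115, 0.0492 with DOS.46 and DOS.46.2 as 2 tumours and 0.0468 after quantile normalisation. With DOS.32 and DOS.100 averaged, ADAMTS4 and ADAMTSL5 joined the called members and MMP25 left them. ADAMTSL4, on average the most abundant of the 4 in tumours, had 5.77 and 16.2 FPKM in the lines, against a tumour median of 4.44 FPKM.

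The osteoblast culture is 1 library and has no test. In it 8 members lay at least 2 log2 units above the tumour mean (17.02%; background 9.55%) and 7 at least 2 below (14.9%; background 6.2%). Above were ADAM12 (110.6 FPKM), ADAM15 (119), ADAM19 (336), ADAM33 (60.5), ADAMTS5 (44.7), ADAMTSL1 (16.6), ADAMTSL3 (28.4) and ADAMTSL5 (58.7). Above every tumour lay 6 members (12.8%; background 22%): ADAM12, ADAM15, ADAM19, ADAM33, ADAMTSL3 and ADAMTSL5. At least 2 below were MMP1, MMP13, MMP16, MMP23B, ADAMTS4 (3.74 FPKM), ADAMTS9 (0.018) and ADAMTS18. The count at least 2 below became 5 after quantile normalisation (10.6%, against 4.74% of all genes). Without tumour DOS.115 it was also 5 (10.6%, against 6.16% of all genes). Both settings left out MMP23B and ADAMTS4. Below every tumour lay 9 members (19.1%; background 19.5%): MMP13, MMP16, MMP25, ADAM8, ADAM28, ADAMTS4, ADAMTS9, ADAMTS16 and ADAMTS18. The count of members at least 2 above became 5 after quantile normalisation (10.6%, against 4.08% of all genes), which left out ADAM12, ADAM15 and ADAMTS5. It became 6 after upper quartile scaling (12.8%, against 4.92% of all genes), which moved the median difference of all genes to -0.41, where it was -0.14 without that scaling.

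The metastasis is also 1 library and was set beside DOS.6, the tumour with the same number. MMP16 was the 1 member at least 1 log2 unit higher in the metastasis (2.13%; background 3.9%), at 26.5 FPKM, against 7.93 FPKM in DOS.6. At least 1 log2 unit lower were 7 members (14.9%; background 5.16%). MMP1 stood at 0.184 FPKM in the metastasis and 4.70 in DOS.6, MMP19 at 1.28 in the metastasis and 6.27 in DOS.6, and MMP23B at 6.41 in the metastasis and 28.03 in DOS.6. Likewise ADAMTS1 stood at 9.27 FPKM in the metastasis and 24.04 in DOS.6, and ADAMTS5 at 1.19 in the metastasis and 5.33 in DOS.6. ADAMTS17 stood at 3.77 FPKM in the metastasis and 10.2 in DOS.6, and ADAMTS18 at 0.856 in the metastasis and 8.34 in DOS.6. Of these, ADAMTS5, ADAMTS17 and MMP19 lay below every primary tumour (6.38% of the 47; background 3.53%), and no member lay above every one (background 5.0%). The summed fibroblast markers were 84.5 FPKM in the metastasis and 501 in DOS.6, and the bone-forming markers 1041 FPKM in the metastasis and 2759 in DOS.6. The endothelial markers were 215 FPKM in the metastasis and 604 in DOS.6, and the macrophage markers 276 FPKM in the metastasis and 505 in DOS.6; their part in these differences was not tested.

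Spread among the 29 primary tumours was measured as the SD of log2(FPKM + 1). By it, 12 of the 47 (25.5%) were among the 10% of genes with the largest SD, and the median SD was 0.843 over the members and 0.538 over all genes. MMP1 had the largest SD (2.38), followed by MMP13 (1.90), MMP23B (1.73), ADAMTS18 (1.59), MMP16 (1.26), MMP19 (1.20), ADAM33 (1.20), ADAM22 (1.12), ADAMTS5 (1.08), ADAM12 (1.02), ADAMTS4 (1.02) and MMP11 (1.01). Tumour DOS.115 held the highest value of 10 of the 47 members, including MMP19, MMP23B, ADAMTS2 and ADAMTS5, and DOS.81 of 6. ADAM33 stood at 52.1 FPKM in DOS.115, where the next tumour had 6.84 FPKM. DOS.101 and DOS.112 each held the lowest value of 9 members. How often these tumours held the highest or lowest value over all genes was not counted, so these counts are not shown to be particular to the members.

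**Figure D4:**
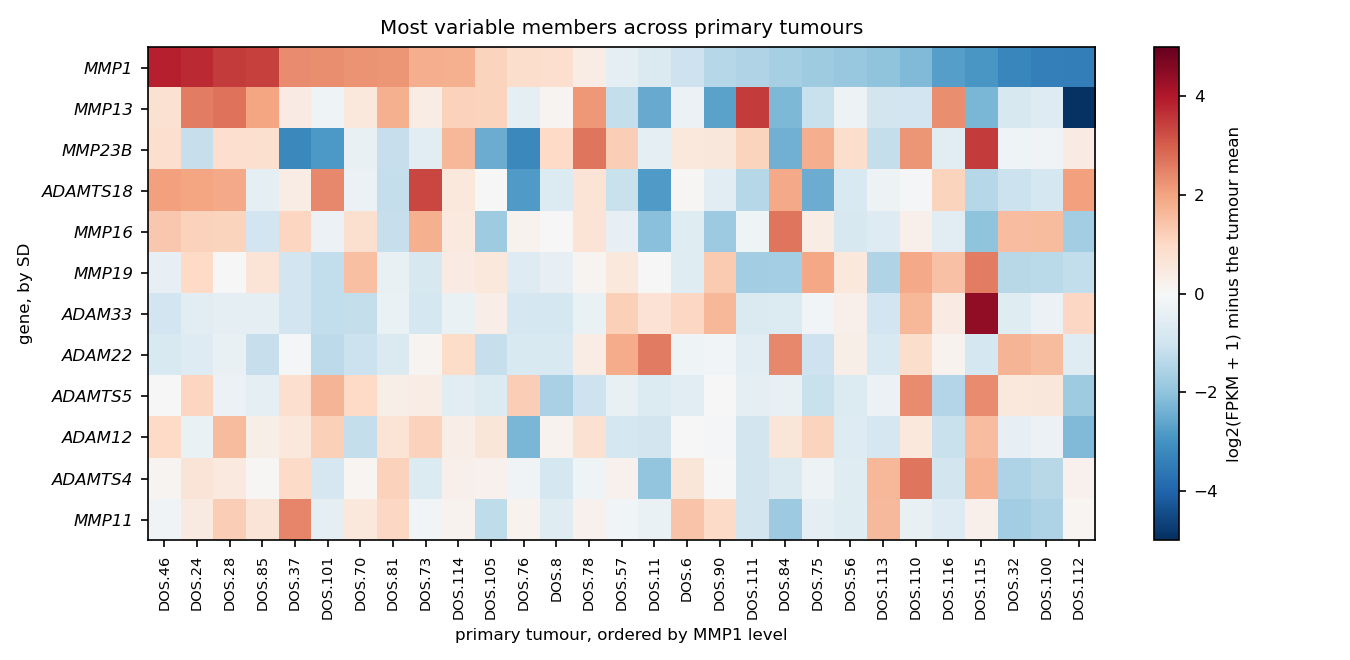
Difference of log2(FPKM + 1) from the mean of the 29 primary tumours (colour, red above and blue below) for the 12 members among the most variable genes (rows, by SD) in each tumour (columns, from the highest to the lowest MMP1 level). The order of tumours by MMP1 is not that of the other genes, and DOS.115 is high for MMP23B, MMP19, ADAM33 and ADAMTS5.

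Relations between members and other genes were tested for 12 pairs across the 29 tumours, of which 7 passed (Pearson correlation, 100000 permutations, Benjamini-Hochberg over the 12), and 7 also passed with DOS.32 and DOS.100 averaged. The pairs were drawn up with earlier results of these data known, so the adjusted p-values are not those of pairs chosen blind. ADAMTS4 moved with PECAM1, an endothelial marker (r = 0.70, adjusted p = 0.00024; rho = 0.68, adjusted p = 0.0006), and r was 0.67 without the 2 tumours farthest from the ADAMTS4 median. ADAMTS1 also moved with PECAM1 (r = 0.56, adjusted p = 0.00362; rho = 0.49, adjusted p = 0.0147). That relation was weaker without DOS.110 and DOS.115, where r was 0.40 and did not pass (adjusted p = 0.0704). ADAM28 moved with the macrophage receptor CD163 (r = 0.54, adjusted p = 0.00417; rho = 0.71, adjusted p = 0.00036), with r = 0.68 without DOS.56 and DOS.70. ADAM8 moved with TYROBP, a signalling adaptor of myeloid cells (r = 0.57, adjusted p = 0.00362; rho = 0.46, adjusted p = 0.0233), with r = 0.46 without DOS.100 and DOS.111 and 0.47 with DOS.32 and DOS.100 averaged.

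MMP13 moved with IBSP, bone sialoprotein of mineralising matrix (r = 0.58, adjusted p = 0.00362; rho = 0.59, adjusted p = 0.00238; r = 0.63 without the 2 tumours farthest from the MMP13 median). MMP13 also moved with MMP1 (r = 0.57, adjusted p = 0.00362; rho = 0.59, adjusted p = 0.00238; r = 0.54 without the 2 farthest tumours). The genes lie near each other in the dog reference, with MMP12 and MMP3 between them. MMP2 moved with its partner TIMP2 (r = 0.54, adjusted p = 0.00417; rho = 0.59, adjusted p = 0.00238; r = 0.50 without DOS.28 and DOS.101). No relation passed for ADAM12 with the fibroblast gene POSTN (r = 0.30, rho = 0.23, adjusted p = 0.166), ADAMTS12 with POSTN (r = -0.09, rho = -0.17, adjusted p = 0.712) or MMP11 with POSTN (r = -0.26, rho = -0.25, adjusted p = 0.212). Nor did one pass for ADAMTS5 with ACAN, the gene of its substrate aggrecan (r = -0.27, rho = -0.33, adjusted p = 0.207), or for MMP25 with the neutrophil receptor CSF3R (r = -0.07, rho = 0.06, adjusted p = 0.712).

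**Figure D5:**
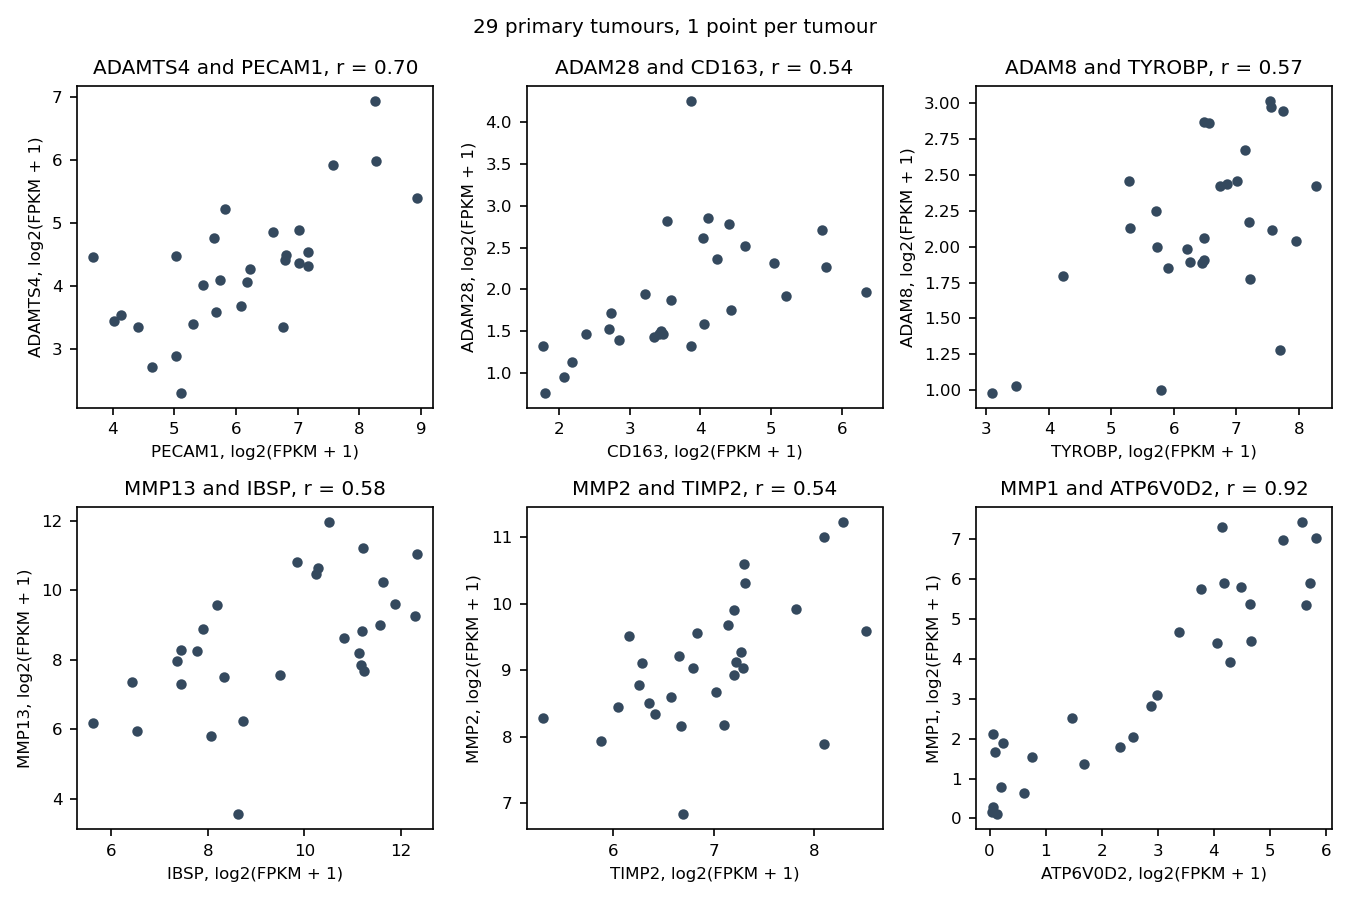
Levels of 6 pairs of genes as log2(FPKM + 1), with 1 point per primary tumour (n = 29) and Pearson's r in each title. ADAMTS4 with PECAM1 has r = 0.70, and 5 of the panels are tested pairs; MMP1 with ATP6V0D2 (r = 0.92) was picked as the closest gene to MMP1 and carries no test.

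For the 6 members with the largest SD, the genes with the most similar pattern over the 29 tumours are given as a description, since they were picked as the highest of 11846 genes with a symbol in the same libraries. Closest to MMP1 were ATP6V0D2, a proton pump subunit of osteoclasts (r = 0.92), then PTPN22 (0.87), SLC37A2 (0.86), STRADB (0.85) and ABCB4 (0.85). The other osteoclast markers found had r = 0.84 (DCSTAMP), 0.78 (OCSTAMP) and 0.70 (OSCAR) with MMP1, and 0.44, 0.45 and 0.61 with MMP13. The summed osteoclast markers were 0.295 FPKM in OSCA.8, 1.52 in OSCA.78 and 0.157 in the osteoblast culture, against 0.092 to 166 FPKM in the tumours. MMP13 was closest to PROM1 (r = 0.75), PLA2G4A (0.73), STX18 (0.68), SLC1A2 (0.67) and FUBP1 (0.66), and MMP23B to MEIS2 (0.76), the cartilage collagen gene COL11A1 (0.74), FNDC1 (0.71), NOVA1 (0.71) and HOXB2 (0.70). Closest to MMP19 were MEDAG (0.81), TMEM198 (0.80), ITGBL1 (0.79), RAB3IL1 (0.77) and MAP1LC3C (0.76), to ADAMTS18 TMEM97 (0.80), B4GALNT3 (0.68), AP3S2 (0.68), RAB27B (0.68) and PRIM2 (0.67), and to MMP16 RPN1 (0.71), ZNF664 (0.68), MANBA (0.67), PPFIA2 (0.67) and SLC24A4 (0.66).

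Over all 1081 pairs of the 47 members the median r was 0.09, with 71 pairs above 0.5 and 5 below -0.5. Pairs of other genes were not counted, so these values describe the members only. The highest was MMP15 with ADAMTS7 (r = 0.90, rho = 0.87, and 0.84 without the 2 tumours farthest from the MMP15 median). The next, TIMP4 with ADAMTS15, had r = 0.81, and 0.51 without such tumours. ADAM33 with ADAMTS15 had r = 0.72, and 0.14 without them, so that 2 tumours set that value. The lowest was ADAM33 with MMP16 (r = -0.59, and -0.62 without them).

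Other genes of the same processes were counted in the comparison of lines with tumours. Over 3 lists, 10 of 53 tested genes passed (18.9%, background 16.4%), 5 higher and 5 lower, a share near that of all genes. Of 19 activators and inhibitors of proteolysis at the cell surface that were tested, 1 (5.26%) rose and none fell: SPOCK1, a secreted proteoglycan, stood at 6.999 and 1.15 FPKM in OSCA.8 and OSCA.78, against a tumour median of 0.134 FPKM (log2 change 1.73, adjusted p = 0.0016; 0.276 without OSCA.8). The highest tumour had 4.07 FPKM of SPOCK1, so OSCA.78 lay inside the tumour range. Of 14 other matrix proteases, 1 rose and 4 fell (35.7%). The gene that rose, HTRA1, ranged from 349 to 1295 FPKM in the tumours, so OSCA.8 lay inside that range and OSCA.78 above it. HTRA1, a secreted serine protease, had 1102 and 1432 FPKM in the lines, against a tumour median of 528 FPKM (log2 change 1.09, adjusted p = 0.0311; 0.461 without OSCA.78 and 0.0806 without OSCA.8). PRSS23 had 0.074 and 0.079 FPKM in the lines, against a tumour median of 88.0 FPKM (-6.00, adjusted p = 0.00076; 0.0520 without OSCA.78), and the lysosomal cathepsin CTSS had 0.426 and 0.323 FPKM in the lines, against a tumour median of 56.8 FPKM (-5.45, adjusted p = 6.7e-06). HTRA3 changed by -4.22 and the fibroblast protease FAP by -3.14 (adjusted p = 0.00013 and 0.00044), and FAP lost its call without OSCA.78 (adjusted p = 0.322).

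Of 20 genes for ADAM partners and substrates, 3 rose and 1 fell (20%, background 16.4%). TSPAN5, a tetraspanin that binds ADAM10, had 41.0 and 34.5 FPKM in OSCA.8 and OSCA.78, against 1.46, 4.48 and 18.7 FPKM in the tumours, above every one of them (log2 change 2.79, SE 0.52, adjusted p = 0.00037). The growth factor genes TGFA and NRG1, whose proteins are shed by ADAM17, changed by 0.98 (adjusted p = 0.00079) and 1.43 (adjusted p = 0.0209). IL6R, an interleukin receptor shed by ADAM10 and ADAM17, changed by -1.17 (adjusted p = 0.0436). These 3 genes were low: TGFA stood at 0.812 and 1.89 FPKM in OSCA.8 and OSCA.78, against a tumour median of 0.102 FPKM. NRG1 stood at 5.64 and 1.86 FPKM in OSCA.8 and OSCA.78 (tumour median 0.536), and IL6R at 0.152 and 0.235 (tumour median 1.28). The calls of TGFA (adjusted p = 0.257), NRG1 (0.0600) and IL6R (0.345) ended without OSCA.78, and those of NRG1 (0.374) and IL6R (0.194) also without OSCA.8. The call of NRG1 also ended with a pseudocount of 0.1 FPKM (adjusted p = 0.0722), and that of IL6R after quantile normalisation (0.123) and without the filter (0.0524).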

How the data were processed

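RNA sequencing values of 34 dog libraries were taken from 1 table deposited by the authors, with 23988 rows. Its header names no unit, and the values were read as FPKM made by the authors, since the column sums differ and Cufflinks 2.2.1 is named, per the submitters' processing notes, with TopHat2 2.0.13, FastQC 0.11.2 and the build canFam3. The sources used here do not give the annotation, the parameters or the strand setting. Libraries were made from total RNA with TruSeq RNA v2 kits, per the labels' protocols. FPKM keep no read counts, so depth is unknown. Among values under 0.3 FPKM, 48.2% to 63.5% of ratios lay near whole-number steps (within 0.02 on the log2 scale), too few to recover reads, and the value of 1 fragment relative to the median library ranged from 0.760 to 2.05.

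Genes reaching 1 FPKM in 2 or more libraries were kept (15165), a pseudocount of 1 FPKM was added and log2 taken, so fold changes understate those of low genes. DOS.46 and DOS.46.2 were averaged; over the 47 members they differed by a median of 0.072 and at most 0.364 (log2). The lines were compared with the 29 tumours in limma 3.58.1 under R 4.3.3 (two-sided test, lmFit and eBayes, trend and robust both on), adjusted over 15165 genes. With 2 lines, the spread comes almost wholly from the tumours. The fit was tested on simulated data. Correlations used 100000 two-sided permutations; of 24 pairs drawn up, 12 had a gene that was not found or failed the filter. Python 3.11.15, numpy 2.4.6, pandas 2.3.3, scipy 1.17.1 and matplotlib 3.10.9 were used beside R.

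Named with values were all MMPs and TIMPs past the filter, other members that were called, among the 10% most variable genes, or highest or lowest of their family, members of the pairs, and called partner genes. Others are named where a count is small and were then chosen after their values were seen. Members, gene lists, roles and pairs were chosen with earlier results of these data known. Which ADAMs lack protease activity was taken as background and not read from sequence. Rows carrying only an Ensembl identifier (9653) were left unnamed. The reference table, UU_Cfam_GSD_1.0, is of another build, was used for names and gene order only (59 members were found in it), and holds no sequences, so none is shown. Alternatives were a pseudocount of 0.1 FPKM, no filter, upper quartile scaling, quantile normalisation, DOS.46 and DOS.46.2 as 2 tumours, limma without trend and robust options, each line left out, and a replicate block; leaving out DOS.115 and averaging DOS.32 with DOS.100 were chosen after seeing the data.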

Additional observations from a re-analysis of the deposited data

How the results depend on the processing

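The 12 members called between lines and tumours (4 higher, 8 lower), the 2489 genes called in all and the 10 called partner genes (5 higher, 5 lower) stayed within 1.5 times of these counts under upper quartile scaling, quantile normalisation, no filter, DOS.46 and DOS.46.2 as 2 tumours, limma without trend and robust options, without DOS.115 (2524 genes in all, 1307 higher and 1217 lower) and with DOS.32 and DOS.100 averaged. With 1 line left out, 1 to 3 members passed (0 to 1 higher, 1 to 2 lower), 344 to 1998 genes in all (199 to 979 higher, 145 to 1019 lower) and 4 to 6 partner genes (2 higher with either, 2 to 4 lower). Titles 8 and 78 each name a line and a tumour, whose deviations from their group means correlated at 0.195 and 0.164; the labels do not say that a number marks a dog, so the samples share only a number. The fit with the number as a replicate block used only OSCA.8, OSCA.78, DOS.8 and DOS.78 and left out all other tumours. In limma it called 0 members, 0 partner genes and 0 genes in all, while 3205 genes and 23 members had an unadjusted p below 0.05. With so few samples it had little power to call any gene, so its lack of calls decides nothing about the calls above. A pseudocount of 0.1 FPKM gave 8 lower partner genes. It also gave 13 members at least 2 log2 units below the tumour mean in the osteoblast culture (27.7%, against 14.1% of all genes), and 2 higher (4.26%, against 6.60%) and 16 lower members (34.04%, against 9.20%) in the metastasis. Quantile normalisation gave 5 members at least 2 above in the osteoblast culture (10.6%, against 4.08% of all genes).

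Uncalled log2 differences near 0 changed sign in some settings. ADAM22 was 0.27 with a pseudocount of 0.1, 0.18 after quantile normalisation, 0.16 with the replicate block and 0.0166 with DOS.32 and DOS.100 averaged. ADAMTSL3 was 0.10 with a pseudocount of 0.1, 0.16 after quantile normalisation, 0.53 with the replicate block and 0.00084 without DOS.115. ADAM23 was 0.0170 with a pseudocount of 0.1 and 0.0256 after quantile normalisation, and ADAM17 was -0.0125 after upper quartile scaling. With the replicate block TIMP2 was 0.33, ADAMTS16 0.0969, ADAM15 0.0462 and ADAM19 0.35, and without DOS.115 ADAM19 was 0.0044. With 1 line left out, ADAM22 ranged over -0.33 to 0.24, ADAM17 over -0.0170 to 0.106, TIMP2 over -0.80 to 0.21, ADAM9 over -1.10 to 0.68, MMP17 over -0.0423 to 0.78, ADAMTS1 over -0.19 to 0.40, ADAMTSL3 over -0.41 to 0.29, ADAM19 over -0.34 to 0.33 and MMP28 over -0.40 to 0.14. The correlation of MMP25 with CSF3R was 0.0059 without the 2 farthest tumours. Apart from the smaller number of samples where a line was left out, the cause was not tested. Read depth is unknown, so how far counting error limits members near or below 1 FPKM, such as ADAM23, MMP8 and TIMP4, could not be computed.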
